A study of Mus musculus with 10 samples.

Results

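The stretch of mouse chromosome 14 on either side of Slc39a14 was examined by ATAC-seq in purified intestinal epithelial cells (IECs). Slc39a14 encodes ZIP14, and its targeted deletion separates the 2 groups of mice. The interval was taken to run from the last peak of Stc1 to the first peak of Rps2-ps6, and its members were all peaks between them that did not belong to Slc39a14 itself. Members were taken by position and not by their own values. The bounding genes, Stc1 and Rps2-ps6, were taken from the study's list of transcripts that differed between the genotypes in RNA-seq. It held 843 of the 246479 peaks of the series and 132 of its 44580 gene IDs. On the Stc1 side there were 205 peaks with 43 gene IDs, and on the Rps2-ps6 side 638 peaks with 89 gene IDs. Peaks are named here by their place counted from Slc39a14, so that peak -35 is the 35th towards Stc1 and peak 69 is the 69th towards Rps2-ps6, and gene IDs are counted in the same way.

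The groups were 5 WT mice (WT1 to WT5, Zip14+/+) and 5 KO mice (KO6 to KO10, Zip14-/-, a whole-body knockout). Both came from crosses of heterozygous mice of a strain backcrossed to C57BL/6, were kept on the same chow and, by the default of the study's methods, were young adult females. The deletion was made in all cells and not in the epithelium alone, which limits the KO group as a model of the epithelium. The sample labels give the duodenum as the source of the IECs, while the study's methods describe isolation from both the duodenum and the upper jejunum, followed by flow cytometry. The purity of the cells was not checked here against marker genes, because few gene IDs were paired with symbols.

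ATAC-seq uses the transposase Tn5, which inserts adapters preferentially into DNA that is free of nucleosomes, so that the number of reads over a peak rises with its accessibility. Promoters and enhancers of active genes are the usual places of open chromatin. ZIP14 carries zinc, and also manganese and iron, into cells. A gene and the DNA close to it are inherited together, which is why the neighbourhood of a targeted gene is a natural place to look beside the gene itself.

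On GRCm38.p6, the RefSeq release of the mm10 build that the labels name, the interval runs over chr14:69041402-76236646, which is 7.2 Mb. Slc39a14 lies at chr14:70303467-70351452, with 1.26 Mb on the Stc1 side and 5.89 Mb on the Rps2-ps6 side. Besides Slc39a14, RefSeq places 161 genes wholly within the interval, of which 67 are protein-coding, 60 are lncRNA genes and 24 are pseudogenes. Of the genes listed by role, 13 were regulators of transcription or the cell cycle, among them Egr3, an immediate early factor, and Rb1, the retinoblastoma protein that holds back entry into the cell cycle. A further 9 encoded receptors and signalling proteins, such as Tnfrsf10b, the mouse TRAIL receptor, Gfra2, a co-receptor for neurturin, and Ppp3cc, a catalytic subunit of calcineurin. Secreted factors and matrix enzymes accounted for 7, including Bmp1, the protease that trims procollagens, and Loxl2, which crosslinks collagen. Cytoskeletal and membrane trafficking genes accounted for 18, including Lcp1, the actin bundling protein of blood cells, and Chmp7, a subunit of the ESCRT-III complex. The mitochondrial list held 4, including Slc25a37, the iron importer mitoferrin 1. The files give gene IDs without symbols, and 0 of the 132 gene IDs were paired with a symbol here. No peak is therefore assigned to any of these genes, and the results below are given by position.

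RefSeq holds a stretch on the Stc1 side in which the lower coordinates of some genes recur at a fixed distance. Whether peaks lie over it was not determined. Of the 946 pairs of lower coordinates among the 44 RefSeq genes between Stc1 and Slc39a14, 4 pairs lie exactly 218250 bases apart, and no other distance is shared by more than 2 pairs. Entpd4, which encodes a nucleoside diphosphatase of the Golgi and lysosomes, starts at 69337151 and is 29592 bases long, and Entpd4b starts at 69555401 and is 29540 bases long. The lncRNA genes Gm41197 and Gm41194 are both 20174 bases long. The other pairs are Synb, which encodes syncytin B, a placental cell fusion protein, with LOC115488278, and Gm16867 with Gm27177. Their lengths differ, at 22031 and 46790 bases in the first of these and 140791 and 58931 bases in the second. The starts of Entpd4b and LOC115488278 are printed because they stand at the second place of these pairs and face away from each other. Each line gives 250 bases before to 50 after the start, read on the strand of the gene (Entpd4b on the plus strand, chr14:69555151-69555450, and LOC115488278 on the minus strand, chr14:69555368-69555667; RefSeq, GRCm38.p6). Capitals mark CCAAT, the box bound by NF-Y, and GGGCGG, the GC box of Sp and KLF factors, on either strand.
Entpd4b: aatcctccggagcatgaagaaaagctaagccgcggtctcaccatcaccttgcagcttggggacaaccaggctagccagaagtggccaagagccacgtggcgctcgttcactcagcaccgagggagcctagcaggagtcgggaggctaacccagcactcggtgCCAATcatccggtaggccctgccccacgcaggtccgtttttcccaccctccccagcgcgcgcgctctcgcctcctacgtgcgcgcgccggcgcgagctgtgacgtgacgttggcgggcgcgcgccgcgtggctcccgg
LOC115488278: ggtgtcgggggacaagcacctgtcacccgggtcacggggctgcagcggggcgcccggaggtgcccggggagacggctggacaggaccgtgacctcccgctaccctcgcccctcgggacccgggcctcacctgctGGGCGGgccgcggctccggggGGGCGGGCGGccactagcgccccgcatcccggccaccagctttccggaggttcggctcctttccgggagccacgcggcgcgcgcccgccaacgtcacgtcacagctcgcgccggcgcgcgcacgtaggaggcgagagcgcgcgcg
The 2 windows share 83 bases. Their GC content was 67% and 77.7%, beside a median of 49.7% over the 70 promoters of the interval in the table and of 52.7% over all 32851. The Entpd4b window held 1 CCAAT box and the LOC115488278 window 3 GC boxes, which overlap in part. Over the interval, 19 of 70 promoters (27.1%) held GGGCGG and 26 (37.1%) held CCAAT, beside 35.7% and 37.4% of all promoters. TATAAA, the TATA box, was in 8.6% beside 13.6%, TGANTCA, the AP-1 motif, in 2.9% beside 7.8%, and CAAAGTCCA, an HNF4 motif, in 0 of 70 beside 0.5%. All motifs were searched on both strands. Whether a peak lay in either printed window was not determined.

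Total counts per mouse were between 5202949 and 15775481 in WT and between 4731176 and 6094983 in KO mice. The interval took 11831 to 49101 counts of a mouse, and the median member peak had 4 to 13 counts. The share of a mouse's counts in the interval was 0.256% in WT1, 0.2405% in WT2, 0.256% in WT3, 0.263% in WT4 and 0.311% in WT5. In the KO mice it was 0.23%, 0.237%, 0.245%, 0.245% and 0.25%. The mean was 0.265% ± 0.0269 (SD, n = 5) in WT and 0.241% ± 0.00796 (SD, n = 5) in KO mice, and the groups overlapped. The difference of -0.024 percentage points was -0.0126 without WT5 and -0.00943 without WT4 and WT5. The deleted gene itself was seen in peak 3 of the 8 peaks of Slc39a14, which had 8 to 21 counts in every WT mouse and 0 in every KO mouse. Among the 843 member peaks, 1 had 0 counts in all KO mice, and it did not reach 5 counts in every WT mouse. No member peak therefore showed the loss seen in that peak of Slc39a14.

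Counts were sufficient for a test in 270 of the 843 member peaks (32%), a share close to the 32.9% of all peaks. Of the 270, 25 reached the level of the filter in all 5 KO but not all WT mice and 17 in all 5 WT but not all KO mice. The 573 others stayed below the filter and are described by their level alone. Tested peaks were unevenly placed. Of the 40 peaks nearest to Slc39a14, 20 on each side, 20 were tested. Of the 150 peaks from 101 to 250 on the Rps2-ps6 side, 12 were. In CPM (counts scaled to a library of 1000000), the window of 50 peaks with the highest group means was the one of peaks 1 to 50, which together had 349 ± 20.2 (SD, n = 5) in WT and 346 ± 20.7 (SD, n = 5) in KO mice. Peaks 151 to 200 together had 36.9 ± 6.51 (SD, n = 5) and 52.1 ± 6.85 (SD, n = 5). In these sparsely open peaks, singled out after their values were seen, the 5 KO mice were at 60.9, 47.2, 43.9, 56.4 and 52.2 CPM. All of them were above the 5 WT mice, at 35, 41.8, 38.9, 42.2 and 26.4 CPM. In every other window of the interval the groups overlapped, and windows elsewhere were not examined. Of all tested peaks of the series in the lowest class of mean count, 17.4% were higher and 1.66% lower in KO mice (unadjusted p under 0.05 in edgeR). Their median log2 fold change was 0.20. Whether this background accounts for the rise in peaks 151 to 200 was not tested. The strongest member was peak -17, with 68.7 ± 7.39 CPM (SD, n = 5) in WT and 65.4 ± 6.27 CPM (SD, n = 5) in KO mice and a log2 fold change of -0.07 (SE 0.10). It did not differ beyond the spread between mice (unadjusted p = 0.471 in edgeR's quasi-likelihood fit).

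Between genotypes, 0 of the 270 tested peaks passed an adjusted p of 0.05 in edgeR's quasi-likelihood test, as did 0.0% of all 81022 tested peaks. The lowest adjusted p of a member was 0.0689. By DESeq2, 3 members passed (1.11%), beside 0.681% of all tested peaks. They were peaks 576, 297 and -35, of which peak -35 was tested mainly through the KO mice, and 2 are left without it. At an unadjusted p under 0.05, 40 members (14.8%) were lower with the knockout and 24 (8.89%) were higher. Over all tested peaks these shares were 5.65% and 10.4%. The median log2 fold change was -0.04 over the tested members and 0.00 over all tested peaks, and it was 0.07 over the 3043 other tested peaks of chromosome 14, of which 4.31% were lower and 12.6% higher. In 5 members all KO mice lay below all WT mice and in 6 they lay above, that is 1.85% and 2.22% of the tested members beside 1.21% and 1.84% of all tested peaks. The excess of members that were lower was thus in the unadjusted calls. The next values give these calls by place along the interval and by mouse.

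**Figure D1:**
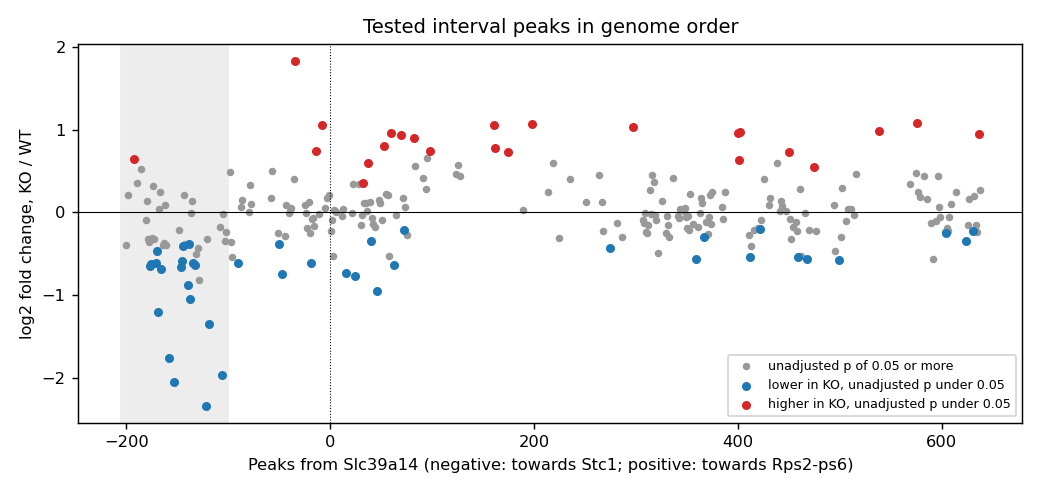
Log2 fold change (KO over WT) of the 270 tested interval peaks against their place counted from Slc39a14, in blue where KO mice were lower and in red where they were higher (unadjusted p under 0.05). Of the 40 blue points, 19 lie in the grey band, the Stc1-side peaks more than 100 from Slc39a14, where 1 point is red.

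The share of peaks that were lower was highest on the far Stc1 side and was also above the 5.65% of all tested peaks over the rest of the interval as a whole. Within 100 peaks on either side, 10 of 83 tested peaks were lower (12%) and 10 were higher (12%), with a median log2 fold change of 0.03. Within 20 peaks, 2 of 20 were lower and 2 were higher. Beyond 100 peaks on both sides together, the planned comparison, 30 of 187 were lower (16%) and 14 higher (7.49%). The split of these peaks by side was not planned. On the Rps2-ps6 side beyond 100 peaks, 11 of 137 were lower (8.03%) and 13 higher (9.49%). On the Stc1 side beyond 100 peaks, that is from -205 to -101, 19 of 50 were lower (38%) and 1 was higher, with a median of -0.38. All other members together had 21 of 220 lower (9.55%) and 23 higher (10.5%), with a median of 0.01.

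On the far Stc1 side WT4 and WT5 had the highest summed levels. The 105 peaks there summed to 378 CPM in WT1, 403 in WT2, 426 in WT3, 676 in WT4 and 759 in WT5. In KO6 to KO10 they summed to 372, 420, 418, 414 and 458 CPM. The WT1, WT2 and WT3 mice were within the range of the KO mice, and WT4 and WT5 stood above all others. No such difference was seen in the neighbouring 100 peaks on the Stc1 side, which summed to 425 CPM in WT4 and 450 in WT5 and to between 400 and 454 in the other mice. On the Rps2-ps6 side WT4 had 1957 and WT5 1885 CPM, within the range of 1877 to 1995 of the others. WT4 and WT5 were the 2 highest mice in 29 of the 50 tested peaks of the far Stc1 side (58%). They were the 2 highest in 4 of 36 nearer on that side (11.1%), in 13 of 184 on the other side (7.07%) and in 4.68% of all tested peaks. These 2 mice were singled out after their values were seen. WT5 was the most deeply sequenced mouse. The 8677347 counts of WT4 lay between those of WT1 (7318572) and WT3 (9677269). Whether depth had a part in these values was not tested.

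**Figure D2:**
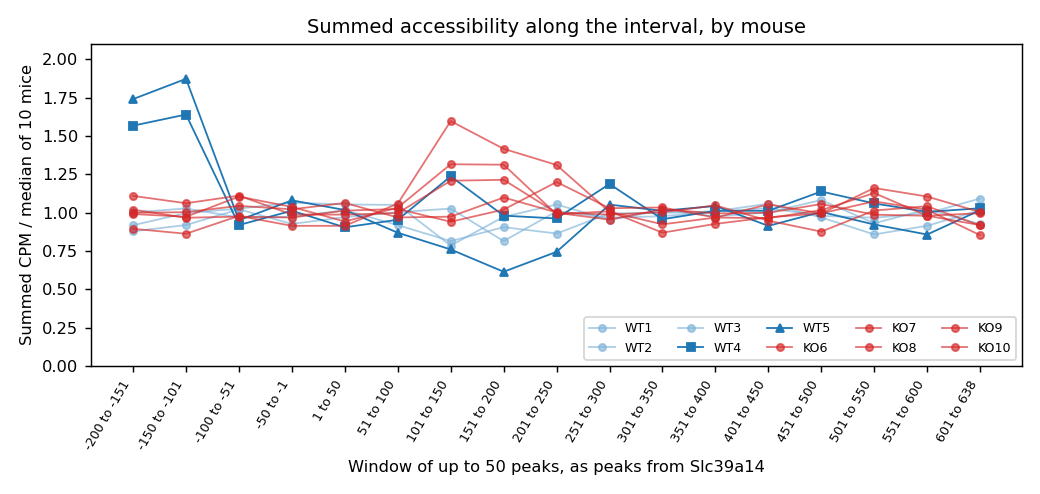
Summed CPM of successive windows of up to 50 interval peaks in each mouse, divided by the median of the 10 mice. In the windows from -200 to -101, WT4 (squares, 311 and 360 CPM) and WT5 (triangles, 345 and 411 CPM) stand above the other 8 mice. Over peaks 251 to 300 they are also the 2 highest, at 110 and 97.6 CPM beside 88.4 to 95.4. Over peaks 151 to 200, sparsely open and singled out after their values were seen, the 5 KO mice (red) lie above the 5 WT mice.

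When WT4 and WT5 were both left out, 0 of 49 tested peaks of the far Stc1 side were lower and 3 were higher at an unadjusted p under 0.05, and the median log2 fold change was 0.02. Over the other members the numbers went from 21 lower and 23 higher to 11 and 15, and over all tested peaks the shares were then 3.4% lower and 6.69% higher. The count of all interval peaks that were lower went from 40 to 11. Leaving out WT5 alone gave 19 (6.62%), beside 4.21% of all tested peaks, and leaving out WT4 alone gave 31 (10.8%), beside 4.54%. With 3 WT mice the test has less power. Since WT4 and WT5 were chosen for their high values in these peaks, the direction in which the counts and the median of the far Stc1 side moved was set by that choice.

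The far Stc1 side also held a run of peaks whose values came back in the same order. When every block of 20 to 60 successive interval peaks was set against the block that follows it, the closest likeness among 28085 such pairs of blocks was between peaks -179 to -149 and peaks -148 to -118. Pearson's r over these 31 pairs of peaks was 0.935, across peaks and on mean log2 CPM, and the median difference within a pair was 0.11 on the log2 scale. In 23 of the 31 pairs the means differed by less than 0.5, and in 8 by 0.5 or more. All 14 pairs of blocks with an r above 0.8 had a length of 31 peaks, and the highest r of a pair that did not overlap this run was 0.709. The block was found by searching, and peaks are not independent replicates, so r is a description.

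The likeness held mouse by mouse in some pairs and not in others. Peak -173 was at 23.3, 30.1, 29.2, 49.1 and 53.3 CPM in WT1 to WT5, and its partner, peak -142, was at 23.9, 28.1, 26.4, 44 and 53.2 CPM. In KO6 to KO10 peak -173 was at 22.4, 31.6, 32.2, 29.9 and 33.4 CPM and peak -142 at 18.6, 31.4, 29.7, 28.7 and 28.2 CPM. WT4 and WT5 were the highest mice in both peaks. Peaks -151 and -120 differed, with 7 CPM in WT5 in the first and 0.378 in the second. Peaks -158 and -127 both had 81 counts in WT4 and 201 in WT5. Peaks -153 and -122 showed the widest gap between mice. Peak -153 was at 23.7 CPM in WT4 and 26 in WT5, and peak -122 at 22.2 and 27.2. In the other 8 mice peak -153 was between 1.12 and 3.55 CPM, and peak -122 between 1.44 and 3.21 CPM. Of the 16 pairs with both peaks tested, 13 had a negative log2 fold change in both, 7 were lower in both at an unadjusted p under 0.05, and the fold changes within a pair differed by a median of 0.10 and at most 0.29.

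**Figure D3:**
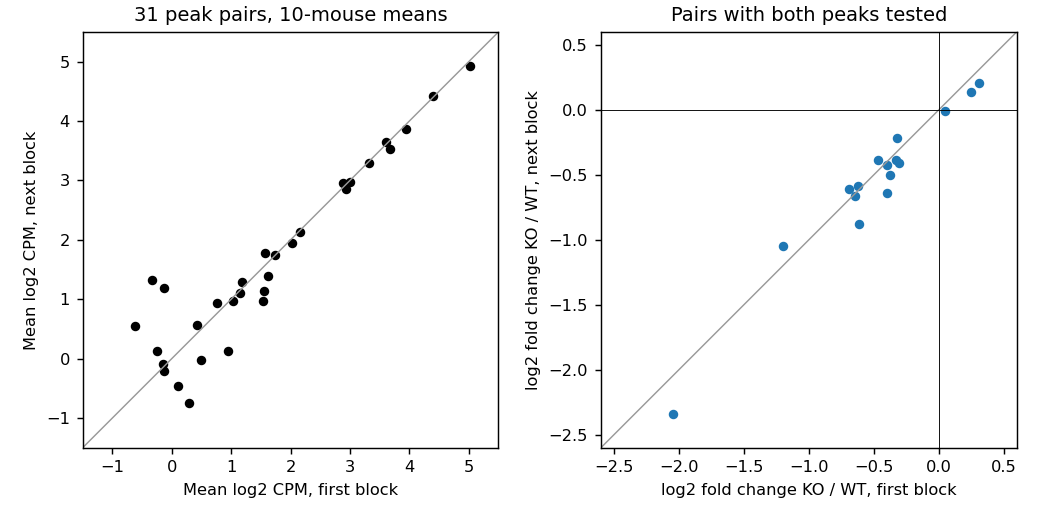
Left, mean log2 CPM over the 10 mice of each of 31 successive peaks (-179 to -149) against the peak 31 places further on (-148 to -118). Right, log2 fold change (KO over WT) of the 16 pairs with both peaks tested. The grey lines mark equal values, and r is 0.935 on the left, where 8 of the 31 pairs differ by 0.5 or more.

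Of these 62 peaks 38 were tested and 18 were lower (47.4%), beside 1 of the 12 other tested peaks of the far Stc1 side and 5.65% of all tested peaks. In them the summed CPM was 541 in WT4 and 628 in WT5, and between 250 and 328 in the other 8 mice. Reads that match 2 near-identical places cannot be assigned to either with certainty. How the authors counted such reads is not given in the sources used here, and their part in these values was not tested. The RefSeq pairs at 218250 bases lie on the same side of Slc39a14, but whether the 62 peaks lie over them was not determined. Why WT4 and WT5 stood apart was not tested.

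The 8 tested peaks of lowest unadjusted p in each direction were taken as examples. Of the 8 that were lower, 4 lay on the far Stc1 side. Peak -122 had the largest change, with a mean of 11.1 ± 12.5 CPM (SD, n = 5) in WT and 2.3 ± 0.809 (SD, n = 5) in KO mice and a log2 fold change of -2.34 (SE 0.67). Its SD in WT exceeded its mean because of WT4 and WT5, and an exact two-sided permutation test over mice gave p = 0.262. Peak -158 behaved alike, with 5.77 ± 5.5 CPM (SD, n = 5) in WT and 1.81 ± 0.601 (SD, n = 5) in KO mice (exact permutation p = 0.206). Without WT4 and WT5 the fold change of peak -122 was 0.15, and peak -158 no longer passed the filter on counts. With all mice kept and 1 surrogate variable in the fit, the log2 fold changes of peaks -122 and -158 were -0.24 and -0.25. Peaks -146 and -177 are partners in the paired run, and in both all KO mice lay below all WT mice. In peak -146 the WT mice were at 7.59, 7.19, 8.14, 11.6 and 12.7 CPM and the KO mice at 5.36, 6.48, 6.4, 7.03 and 5.05, with a log2 fold change of -0.66 (SE 0.19). In peak -177 it was -0.64 (SE 0.18). Without WT4 and WT5 the fold changes of both were -0.35 (adjusted p = 0.547 and 0.55 in edgeR).

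The other 4 lower peaks all lay on the Rps2-ps6 side. Peak 459 was at 9.05, 11.7, 11.3, 11.1 and 11.1 CPM in WT and at 7.54, 5.64, 8.85, 6.63 and 8.42 CPM in KO mice. The groups did not overlap, and the log2 fold change was -0.55 (SE 0.15). Peak 359 had 7.03 to 12.1 CPM in WT and 5.02 to 6.74 CPM in KO mice, again without overlap, with a log2 fold change of -0.57 (SE 0.18). For both, the exact two-sided permutation test gave p = 0.00794, the smallest that 5 against 5 mice allow. Peaks 15 and 63 had log2 fold changes of -0.73 (SE 0.22) and -0.64 (SE 0.18). In both the highest KO mouse was above the lowest WT mouse, and the exact permutation p was 0.0159. Without WT4 and WT5 the log2 fold change was -0.30 in peak 63, -0.37 in peak 359, -0.94 in peak 15 and -0.53 in peak 459. None of the 8 passed the adjusted threshold (adjusted p between 0.0985 and 0.129 in edgeR).

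Of the 8 peaks that were higher in KO mice, 7 lay outside the far Stc1 side. Peak -35 had the largest change. It was at 2.04, 1.35, 1.9, 0.268 and 0.315 CPM in WT and at 2.98, 3.35, 4.52, 5.22 and 3.13 CPM in KO mice, so that every KO mouse was above every WT mouse. The log2 fold change was 1.83 (SE 0.42), and 1.07 without WT4 and WT5. These levels rest on 2 to 17 counts in WT and 13 to 26 in KO mice. The counts reached the level that the filter asks for, 1.64 CPM of total counts, in 2 WT and 5 KO mice, so the peak was tested mainly through the group in which it was high, and its values are a description. It was not tested where at least 10 counts were required in every mouse. Here WT4 and WT5 were the lowest 2 mice. Peak 297 was at 3.06 ± 0.92 CPM (SD, n = 5) in WT and 6.23 ± 1.35 CPM (SD, n = 5) in KO mice, also without overlap, with a log2 fold change of 1.03 (SE 0.24) and an exact two-sided permutation p of 0.00794. Peak 69 was at 1.96 ± 0.456 CPM (SD, n = 5) and 3.58 ± 0.706 CPM (SD, n = 5), without overlap. It reached the level of the filter in 3 WT and 5 KO mice, and its values are likewise a description. Peak 297 reached it in 4 WT and 5 KO mice.

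In the other 5 the groups overlapped. Peak 576 had the lowest unadjusted p of the interval, 0.000188, with a log2 fold change of 1.07 (SE 0.23). Its WT mice were at 3.21, 5.17, 2.79, 2.14 and 2.96 CPM, and its KO mice at 9.12, 6.9, 6.21, 5.83 and 4.81 CPM, with WT2 above KO10. Peak 198 was at 0.669 to 2.25 CPM in WT and 2.07 to 3.37 CPM in KO mice. It reached the level of the filter in 1 WT and 5 KO mice, so that these values too are a description. Peak -14 had a log2 fold change of 0.74 (SE 0.20), peak -193 of 0.65 (SE 0.17) and peak 37 of 0.60 (SE 0.17). Peak -193 was the only 1 of the 50 tested peaks of the far Stc1 side that was higher at an unadjusted p under 0.05. It had 8.17 to 13 CPM in WT and 11.3 to 21.9 CPM in KO mice, and WT4 (10.6) and WT5 (9.39) did not stand above the others. Leaving aside peaks -35, 69 and 198, adjusted p was between 0.0689 and 0.104 in edgeR.

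The direction of the unadjusted calls varied with the level of a peak. All tested peaks were divided into 4 classes of equal size by mean count. Over all tested peaks the share lower in KO mice went from 1.66% in the lowest class to 11% in the highest, and the share higher from 17.4% to 3.16%. In the interval the shares that were lower were 2.94% (2 of 68 peaks), 17.2% (10 of 58), 22.4% (17 of 76) and 16.2% (11 of 68). These were above the background in each class, but the lowest class rests on 2 peaks. With the far Stc1 side left out they were 3.57% (2 of 56), 10.4% (5 of 48), 9.84% (6 of 61) and 14.5% (8 of 55), beside 1.66%, 3.42%, 6.56% and 11% of all tested peaks. The classes were not repeated without WT4 and WT5, where 3.74% of tested interval peaks were lower, beside 3.4% of all. The shares that were higher were 16.2%, 6.9%, 9.21% and 2.94%, beside 17.4%, 13.4%, 7.58% and 3.16%.

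**Figure D4:**
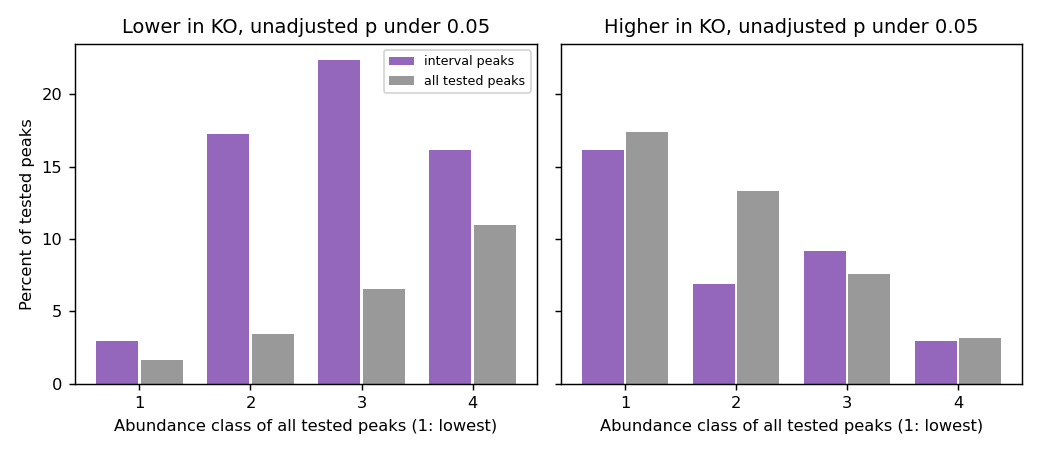
Percent of tested peaks at an unadjusted p under 0.05, lower (left) or higher (right) with the knockout, in 4 classes of mean count set on all tested peaks (1, lowest). Purple bars are the interval (68, 58, 76 and 68 peaks) and grey bars all tested peaks. In classes 2 and 3, 17.2% and 22.4% of interval peaks were lower, beside 3.42% and 6.56% of all.

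Summing the counts per gene ID gives a test more reads than any weak peak alone. Of the 132 gene IDs, 118 were tested. At an adjusted p under 0.05 in edgeR, 2 fell in KO mice (1.69%) and 5 rose (4.24%), beside 1.01% and 2.9% of all 36715 gene IDs tested. In 4 gene IDs (3.39%) all KO mice lay below all WT mice, and in 3 (2.54%) they lay above, beside 2.84% and 3.18% of all. The median log2 fold change was -0.11 over the interval and 0.00 over all gene IDs tested. It was -0.47 over the 25 tested gene IDs of the far Stc1 side, where 14 were lower and 2 higher at an unadjusted p under 0.05 (over all gene IDs 11.8% and 15.7% were) and 0 passed the adjusted threshold, and -0.05 over the other 93, which held all 7 that passed. Without WT4 and WT5 the median over these 25 was 0.03, with 0 lower and 4 higher (beside 5.82% and 10.5% of all gene IDs), and over all tested gene IDs of the interval it was -0.03. Among the 8 gene IDs next to Slc39a14 on each side, 15 were tested and 1 passed, with log2 fold changes between -0.39 and 0.72.

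Both gene IDs that fell lie on the Rps2-ps6 side. The 3 peaks of ENSMUSG00000047911, at 61 to 63, summed to 14, 16.5, 14.7, 25 and 23.3 CPM in WT and 7.91, 11.1, 12.7, 12.9 and 10.7 CPM in KO mice. All KO mice were below all WT mice, with WT4 and WT5 again the highest. The log2 fold change was -0.77 (SE 0.18, adjusted p = 0.0334 in edgeR), and -0.43 without WT4 and WT5 (adjusted p = 0.223). The 3 peaks of ENSMUSG00000090216, at 273 to 275, summed to 11.4, 9.77, 11.8, 14.6 and 14 CPM in WT and 9.42, 8.28, 7.62, 9.57 and 7.74 CPM in KO mice. WT4 and WT5 were the highest here too. These groups did not overlap either, and the log2 fold change was -0.54 (SE 0.14, adjusted p = 0.0433 in edgeR), and -0.37 without WT4 and WT5 (adjusted p = 0.266).

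Of the gene IDs that rose, ENSMUSG00000115559, with 6 peaks at 397 to 402, had the lowest p. It was at 10.3, 13.2, 11.6, 8.45 and 7.52 CPM in WT and 15.5, 12.1, 14.6, 17.6 and 19.9 CPM in KO mice, with KO7 below WT2, and a log2 fold change of 0.66 (SE 0.16, adjusted p = 0.039 in edgeR). WT4 and WT5 were the lowest mice here. ENSMUSG00000022100, with 5 peaks at 66 to 70 that include peak 69, was at 3.87 ± 0.629 CPM (SD, n = 5) in WT and 6.48 ± 1.22 CPM (SD, n = 5) in KO mice. No KO mouse was as low as a WT mouse, and the log2 fold change was 0.74 (SE 0.19, adjusted p = 0.0416 in edgeR). The other 3 were gene ID 78, which includes peak 576 (0.56, SE 0.15), gene ID -6, which includes peak -14 and is the one of these 7 closest to Slc39a14 (0.72, SE 0.19), and gene ID 20, whose 21 peaks lie at 92 to 112 (0.47, SE 0.13). The last rose in every KO mouse above every WT mouse, from 19.4 ± 3.39 CPM (SD, n = 5) to 26.5 ± 3.22 CPM (SD, n = 5).

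**Figure D5:**
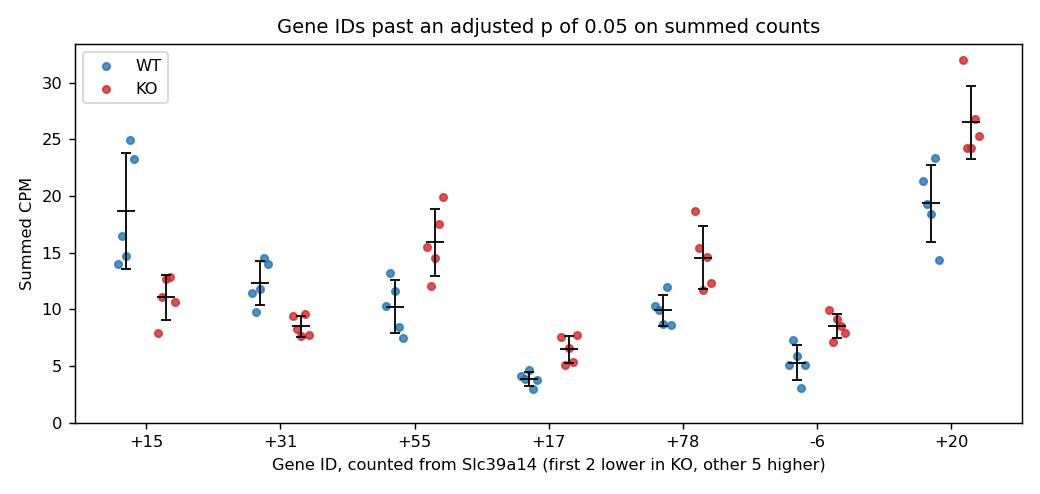
Summed CPM of the 7 gene IDs of the interval past an adjusted p of 0.05, by mouse (blue, WT; red, KO), with mean and SD in black (n = 5 each). Gene IDs 15 and 31 are lower in KO mice, and gene IDs 55, 17, 78, -6 and 20 are higher; in gene IDs 15, 31, 17 and 20 the groups do not overlap.

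These calls stood close to the threshold. Without WT3, WT5, KO6, KO9 or KO10, 0 of the 7 passed. Without WT4, 1 passed, and without KO8, 2 passed. When WT4 and WT5 were both left out, 0 of the 7 passed (adjusted p between 0.178 and 0.266 in edgeR). With loess offsets 2 passed, the 2 that fell. The 5 that rose then had log2 fold changes between 0.51 and 0.63 (adjusted p between 0.0581 and 0.149 in edgeR). Over all gene IDs the calls also went to 0 without WT3, WT5, KO6, KO9 or KO10, and without WT4 and WT5 together.

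The 5 gene IDs of highest summed CPM had log2 fold changes between -0.20 and -0.12. Gene ID 1, which follows Slc39a14 directly, has 13 peaks and was at 124 ± 12.9 CPM (SD, n = 5) in WT and 111 ± 11.9 CPM (SD, n = 5) in KO mice, with a log2 fold change of -0.16 (SE 0.09). Gene ID -7, which holds peak -17, was at 114 ± 13.4 CPM (SD, n = 5) and 99.8 ± 8.11 CPM (SD, n = 5), with a log2 fold change of -0.20 (SE 0.09). Gene IDs 45, 39 and 64 had log2 fold changes of -0.15, -0.12 and -0.12. With loess offsets these 5 log2 fold changes lay between -0.09 and -0.01. In all 5 the groups overlapped, and adjusted p was between 0.153 and 0.319 in edgeR. At the edges of the interval the log2 fold changes were -0.41 (SE 0.37) for Stc1, which encodes the hormone stanniocalcin 1, and 0.04 (SE 0.12) for the pseudogene Rps2-ps6. The summed counts of Slc39a14 had a log2 fold change of -0.26 (SE 0.11, adjusted p = 0.144 in edgeR).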

How the data were processed

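ATAC-seq of purified IECs from 5 WT and 5 KO mice was analysed, with groups and mouse numbers from the sample labels. Reads were paired-end and 75 bp long. Raw counts were deposited for 1 set of peaks, with an Ensembl gene ID per peak. They also deposited a normalized signal, the count divided by 1 factor per mouse, which was not tested here. The labels name mm10. Aligner, peak caller, the handling of duplicates, multiple matches and the Tn5 offset, and the rule that assigned peaks to genes are not given in the sources used here. Peak positions were not used. The order of peaks was taken from the row numbers sorted as text. Along it, 244 gene IDs of known chromosome formed 21 runs, 1 for each of 21 chromosomes. Of 246501 rows, 22 were empty.

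Raw counts were fitted with edgeR 4.0.16 under R 4.3.3 (filterByExpr by genotype, TMM, glmQLFit, glmQLFTest), genotype being the single term, and p was adjusted by Benjamini-Hochberg over all peaks tested. The same fit was made on counts summed per gene ID. The 594 peaks without a gene ID, 0.78% of counts, were left out of the sums. CPM used TMM library sizes of the fit concerned, log2 CPM a prior count of 2, and the SE is the size of the log2 fold change over the square root of F, an approximation. Single values were compared by exact two-sided permutation over 252 labelings. P-values measure the spread between mice, and counting error is included in it. The script was tested on simulated data. Genes were named by a rule: the 8 tested peaks of lowest unadjusted p in each direction, gene IDs past an adjusted p of 0.05, and the 5 gene IDs of highest CPM. The 8 neighbours on each side and the gene lists by role were given as counts, because gene IDs of the interval were not paired with symbols. The interval, lists and tests were chosen with earlier results of these data known.

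Alternatives were total counts without TMM, loess offsets (span 0.3), DESeq2 1.42.0, no filter, at least 10 counts in every mouse, 1 surrogate variable (sva 3.50.0), leaving out the peak of highest count in the table, and leaving out each mouse. Leaving out WT4 and WT5 together, the search for repeated blocks and the classes of mean count were added after seeing the data. Tables used Python 3.11.15.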

Additional observations from a re-analysis of the deposited data

Results flagged for a closer look

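Among 29 measures in 2 groups of 5 mice each, 3 groups had a mouse set apart from the other 4 by more than 0.71 of the group's range, where chance gives about 1 group in 20. In peak 459, WT1 was lowest, with a log2 CPM of 3.22 beside 3.51 to 3.58 in the other WT mice. In peak 297, WT4 was lowest, at 0.821 beside 1.78 to 2.04. In the sum of gene ID 45, WT5 was highest, at 6.99 beside 6.64 to 6.71. The gap of WT4 and WT5 on the far Stc1 side is not among these, since a pair of high mice leaves no gap between them.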

How the results depend on the processing

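No paired analysis was possible because numbers 1 to 5 belong to WT and 6 to 10 to KO mice. The cause was not tested for any of the following changes. The 40 peaks lower and 24 higher at an unadjusted p under 0.05 became 106 and 58 with no filter on low counts, where 843 peaks were tested (12.6% and 6.88%, beside 7.09% and 6.75% of all peaks). There were 25 of 178 lower (14% beside 5.1%) with at least 10 counts in every mouse, 11 of 270 (4.07% beside 3.54%) with 1 surrogate variable and 11 of 294 (3.74% beside 3.4%) without WT4 and WT5. The 0 peaks past the adjusted threshold became 3 with DESeq2 (1.11% beside 0.681% of all, or 2 without peak -35, tested mainly through the KO mice), 12 with no filter (1.42% beside 0.16%) and 5 with at least 10 counts in every mouse (2.81% beside 1.58%). The 12 included peaks -122 and -158, which were high in WT4 and WT5, and peak -35. The median log2 fold change of -0.04 was -0.10 with total counts and -0.075 with loess offsets, beside -0.06 and -0.02 over all peaks, and 0.0047 without WT4 and WT5. For summed counts, the 2 gene IDs lower and 5 higher became 1 and 3 with total counts (0.847% and 2.54%, beside 0.384% and 2.05% of all) and 6 and 8 with DESeq2 (5.08% and 6.78%, beside 2.01% and 3.95%). There were 0 higher with loess offsets, beside 0.643% of all, and 0 in either direction with 1 surrogate variable (1 lower and 24 higher of all) or without WT4 and WT5 (0 of all). The 11 peaks without overlap (4.07% beside 3.05% of all) became 17 without WT4 and WT5 (6.3% beside 5.82%), where 3 mice stand against 5. Peak -122 changed sign without WT4 and WT5, to 0.15.

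Leaving out each mouse gave 19 (WT5) to 52 peaks lower, 24 to 36 higher and 0 to 16 past the adjusted threshold (16 without WT2, 5.52% beside 2.19% of all), medians between -0.05 and -0.01, 0 to 10 gene IDs lower and 0 to 8 higher (most without WT2, 8.47% and 6.78% beside 3.02% and 5.86% of all), 12 to 26 peaks without overlap (26 without WT2, 9.63% beside 6.78% of all), and a difference in the share of counts between -0.0302 and -0.0126 percentage points, beside -0.024 over all mice. The 16 peaks without WT2 included peak -122, and peaks -35, 69 and 198, whose values are given as a description. Of the alternatives for named peaks and gene IDs, 404 kept direction and side of the threshold, whatever the change in size, 73 lost the threshold and 20 gained it. Depth limits the 573 peaks that were not tested.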
